A study of Sus scrofa with 21 samples.

Results

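The genes described here encode 10 proteins that set the pH, the bicarbonate response and the membrane potassium current of sperm. They are the potassium channel KCNU1 and its auxiliary subunit LRRC52, the proton channel HVCN1, the sperm sodium-proton exchangers SLC9C1 and SLC9C2, the soluble adenylyl cyclase ADCY10, and the anion transporters and channel SLC26A8, SLC26A3, SLC26A6 and CFTR. They were chosen by gene symbol. Of the 10 symbols, 9 matched an Ensembl pig gene among the 25880 genes counted, and SLC9C2 was not matched and is not analysed here.

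Hyperactivity is the vigorous, asymmetric tail beat that sperm adopt on the way to the egg. Bicarbonate activates soluble adenylyl cyclase, which makes the cyclic AMP that drives protein kinase A, while loss of protons makes the sperm interior more alkaline. An alkaline interior opens the sperm potassium channel and the CatSper calcium channel of the tail, and the calcium that enters drives the hyperactive beat. Mature sperm transcribe almost nothing, so the messages of these proteins are measured in the testis, where spermatocytes and spermatids make them.

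RNA was sequenced from the testis of 21 artificial insemination boars, 1 library per boar, with tissue taken at slaughter after their ejaculates had been scored for hyperactivity. The labels give 13 Landrace and 8 Duroc boars. In Landrace, 4 boars had low (L1, L2, L3, L4) and 4 had high (L5, L6, L7, L8) hyperactivity at ejaculation (day 0), which is contrast (i). For contrast (iii), hyperactivity changed little in 4 boars (L2, L9, L10, L12) and much in 3 boars (L7, L13, L15) over 96 h of semen storage, so that L2 and L7 belong to both contrasts. In Duroc, contrast (ii), the labels place 5 boars (D1 to D5) in the high and 3 (D6, D7 and D9) in the low group at day 0. The study's own list of boars gives other groups for most of these Duroc names, but the read total of each deposited Duroc library matches a boar of its labelled group in that list, at the ratio seen in Landrace. The groups follow the labels and are called labelled high and labelled low. The boars were purebred and in routine use for insemination, and the labels give no ages. Each library stands for a whole testis sample with many cell types. Fewer cells of a type and less RNA per cell cannot be told apart in such data.

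The libraries held between 41358671 and 125576407 reads assigned to genes. Levels are given as CPM, the reads of a gene scaled to a common library total, with library sizes set by edgeR's TMM factors over all 21 libraries. Reads were not divided by gene length, so levels are compared between boars and not between genes. No 2 libraries were alike within counting error. The labelled tissue was borne out by its germ cell and Leydig cell markers: SYCP3 (spermatocytes) was at 272.7 CPM or more, ACRV1 (round spermatids) at 304.7 CPM or more, TNP1 (elongating spermatids) at 3363 CPM or more and CYP17A1 (Leydig cells) at 278.9 CPM or more in all 21 boars. Of the Sertoli cell markers, SOX9 was at 27.2 CPM or more in each boar and AMH had no reads.

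The potassium channel genes were read in all 21 testes. KCNU1 (ENSSSCG00000029131, chromosome 15, 49317110 to 49444337 in Sscrofa11.1) encodes the pore of SLO3, a potassium channel of sperm that opens at alkaline pH. Its level ran from 71.2 to 133.8 CPM with a median of 88.6 CPM. LRRC52 (ENSSSCG00000029977, chromosome 4, 85187934 to 85205778) encodes the subunit that shifts the opening of this channel towards the voltages of a living sperm, and it ran from 19.1 to 44.9 CPM with a median of 27.7 CPM. The LRRC52 locus lies wholly within the span of RXRG in the RefSeq annotation. HVCN1 (ENSSSCG00000009827, chromosome 14, 32006837 to 32044165) encodes a voltage-gated channel that lets protons out, and it ran from 55.1 to 96.4 CPM with a median of 73.8 CPM. Its locus shares 3366 bases with TCTN1.

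SLC9C1 (ENSSSCG00000023918, chromosome 13, 147517985 to 147612667), the sodium-proton exchanger of the sperm tail, ran from 140.3 to 315.2 CPM with a median of 219.8 CPM. ADCY10 (ENSSSCG00000006305, chromosome 4, 83103768 to 83205015), the bicarbonate-activated cyclase, ran from 205.8 to 456.5 CPM with a median of 269.8 CPM. SLC26A8 (ENSSSCG00000001555, chromosome 7, 31722409 to 31791620), the anion transporter of the sperm annulus, ran from 415.8 to 809.8 CPM with a median of 580.4 CPM, and its locus shares 223 bases with MAPK14. Over all 21 boars each of the genes above was below the median gene for spread. The difference between the highest and lowest boar on the log2 scale was between 0.81 (HVCN1) and 1.23 (LRRC52) for them, beside a median of 1.33 over the 12839 genes with at least 1 CPM in 11 boars. Among the 8 Duroc boars alone LRRC52 (1.08), SLC9C1 (1.17) and ADCY10 (1.04) were above the median of 0.95.

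The remaining 3 anion genes were read at lower counts. SLC26A6 (ENSSSCG00000011361, chromosome 13, 31319287 to 31330649), which exchanges chloride for bicarbonate, ran from 5.30 to 15 CPM with a median of 10.7 CPM. SLC26A3 (ENSSSCG00000021813, chromosome 9, 107480629 to 107518771), a chloride-bicarbonate exchanger best known from the gut, ran from 0.0166 to 16.3 CPM with a median of 7.40 CPM. CFTR (ENSSSCG00000016626, chromosome 18, 28627717 to 28818209), the cyclic AMP-gated chloride and bicarbonate channel, had 1 to 12 reads in each library, or 0.0169 to 0.147 CPM. At this depth CFTR could not be compared between groups with any precision, and it entered no test across genes.

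**Figure D1:**
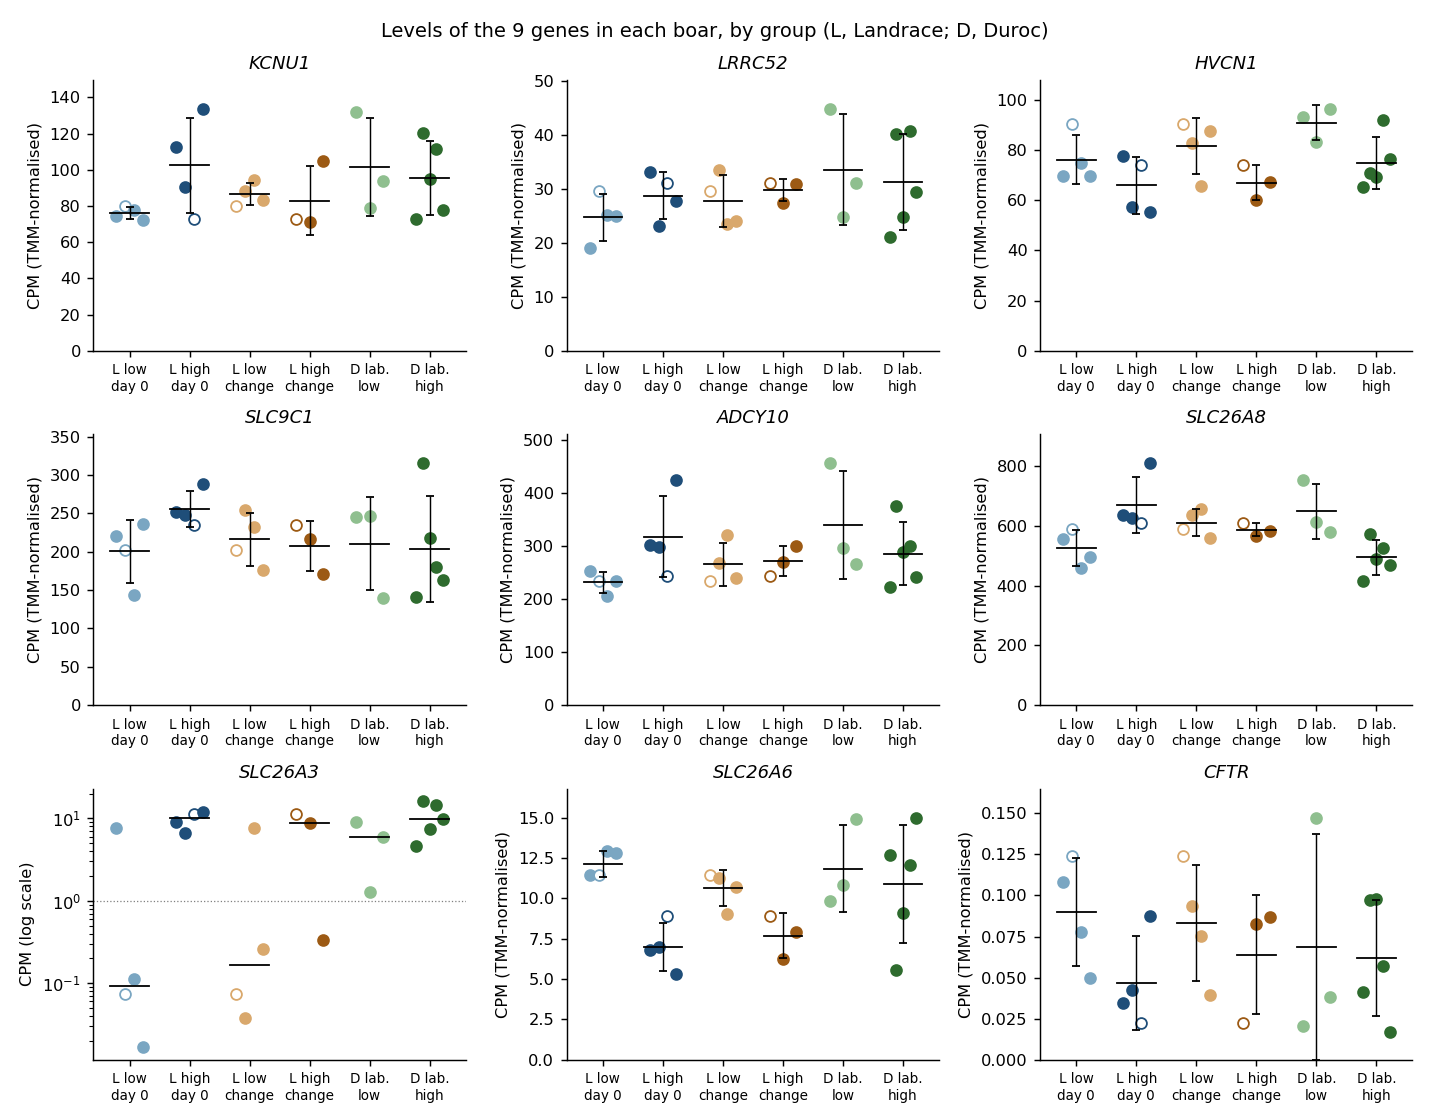
Level of each of the 9 genes in CPM in every boar (points), by group, with Landrace day 0 groups in blue, Landrace storage change groups in brown and Duroc groups as labelled in green. Bars are the mean ± SD, except for SLC26A3, whose log axis carries the group median and a dotted line at 1 CPM; open points are L2 and L7, which belong to both Landrace contrasts. The 4 high boars of day 0 lie below the 4 low boars for SLC26A6, and SLC26A3 splits the Landrace boars into those above and those under 1 CPM.

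In contrast (i), which asks which testis genes differ between Landrace boars with high and low hyperactivity at ejaculation, SLC26A6 was the 1 gene of the 8 tested that passed the threshold, and it was lower in the high group. Its levels were 11.5, 11.5, 12.9 and 12.8 CPM in the low boars L1 to L4. In the high boars L5 to L8 they were 6.82, 6.96, 8.92 and 5.30 CPM. Every high boar was below every low boar, and the means were 7.0 ± 1.49 CPM in the high and 12.2 ± 0.805 CPM in the low group (SD, n = 4 each). On the log2 scale the fold change was -0.86 ± 0.20 (SE), and the quasi-likelihood p-value of edgeR, adjusted over 12979 genes by the Benjamini-Hochberg method, was 0.0219. A two-sided exact permutation test of the log2 levels gave p = 0.0286, the smallest value that 4 boars against 4 allow.

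The background of this comparison was wide. Of the 12979 genes tested, 2682 passed (20.7%), with 626 higher (4.82%) and 2056 lower (15.8%) in the high group, so that 1 of 8 called is no more than the share of all genes. This background rested on single boars. It was 1 gene without L3 or L6 and in the joint fit of all 21 boars, 966 without L1, 1481 without L4 and 1228 without L8. The TMM factors of the 2 groups did not overlap (0.822 to 0.986 in the high and 1.03 to 1.18 in the low group). Without them every difference in this contrast was 0.23 lower on the log2 scale. The SLC26A6 call was lost when all 21 boars were fitted together (log2 fold change -0.88, adjusted p = 0.0510) and without the low boar L3 (-0.86, adjusted p = 0.0505) or the high boar L6 (-0.85, adjusted p = 0.0548). Over the 14 alternatives to the edgeR fit its adjusted p ran from 0.00108 to 0.0548, and 11 were under 0.05.

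Cell type markers moved with contrast (i). Of the peritubular and smooth muscle markers, 3 of 5 tested were lower in the high group (MYOCD by -2.14, DES by -1.50 and MYH11 by -1.17 on the log2 scale) and none was higher. The summed level of that list was 52.8 to 117.1 CPM in the low and 21 to 65.1 CPM in the high boars. Of the spermatocyte markers, DMC1 (0.50) and SMC1B (0.43), 2 of 8, were higher, and the summed level was 1238 to 1602 CPM in the low and 1735 to 2568 CPM in the high boars, without overlap. Of the 8 round spermatid markers 3 were lower, with ACTL9 at -1.12, and of the 10 elongating spermatid markers 4 were lower, with TSSK6 at -1.41. The round list had 4 positive and 4 negative fold changes, with a median of -0.06. The elongating list had 3 positive and 7 negative ones, with a median of -0.24. Their summed levels overlapped, at 10244 to 15315 CPM in the low and 12439 to 16962 CPM in the high boars for the elongating list. None of the Sertoli (5 tested), Leydig (6), endothelial (5) or leukocyte markers (4) passed. Of 6 spermatogonia markers 1 was higher (ID4, 0.62), while 4 had a negative fold change that did not pass (list median -0.11). AQP9 (0.56), the 1 excurrent duct marker tested, was higher. The summed excurrent duct list was at 16.6 to 25.7 CPM in the low and 26.6 to 38.8 CPM in the high boars, without overlap, with LCN8 and WFDC8 under 1 CPM in all boars.

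Over the 21 boars SLC26A6 followed the mean log2 level of the peritubular list with r = 0.80 (rho = 0.78) and that of the elongating list with r = 0.64 (rho = 0.63). ADCY10 and SLC9C1 ran against the peritubular list (r = -0.83, rho = -0.78, and r = -0.84, rho = -0.82). The part of these cell types in the differences of contrast (i) was not tested.

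ADCY10 had the next largest difference among the genes with a narrow range. Its levels were 252.5, 233.7, 205.8 and 235.0 CPM in the low boars L1 to L4 and 302.7, 299.4, 244.8 and 425.3 CPM in the high boars L5 to L8. The groups overlapped through L7, which lay below L1. The log2 fold change was 0.38 ± 0.15 (SE, adjusted p = 0.0861). Without L7 it was 0.48 and passed (adjusted p = 0.0469), and over the 14 alternatives the adjusted p ran from 0.0469 to 0.256.

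KCNU1 behaved in the same way across the 8 boars. It was at 74.8, 80.1, 77.9 and 72.5 CPM in L1 to L4, and at 112.6, 90.7, 72.7 and 133.8 CPM in L5 to L8, with L7 again inside the range of the low group. KCNU1 differed by a log2 fold change of 0.35 ± 0.17 (adjusted p = 0.132), and without L7 it was 0.47 with an adjusted p of 0.0481, the lowest of its 14 alternatives, which reached 0.323. Without L7, 3 of the 8 genes were therefore called, namely KCNU1, ADCY10 and SLC26A6. The share of all genes called in that fit is not set beside this count. Over the 8 fits with a boar left out, the number of genes called ran from 1 to 3764. The partner subunit LRRC52 differed by 0.15 ± 0.18 (adjusted p = 0.545). Its difference in mean log2 level, a separate measure, was 0.22 with and -0.00703 without the TMM factors.

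SLC26A8 was at 557.6, 590.3, 458.6 and 494.4 CPM in L1 to L4 and at 635.2, 627.9, 609.8 and 809.8 CPM in L5 to L8. No high boar fell within the range of the low boars. The exact permutation test gave p = 0.0286, while edgeR's adjusted p was 0.130 for a log2 fold change of 0.28 ± 0.13. Without the TMM factors the difference in mean log2 level was 0.12 with an exact p of 0.171. The groups of SLC26A8 and SLC26A6, 2 of the 9 genes, did not overlap, beside 31.4% of the 12979 genes. SLC9C1 differed by 0.28 ± 0.15 (adjusted p = 0.172) and HVCN1 by -0.28 ± 0.16 (adjusted p = 0.201), both with overlapping groups.

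SLC26A3 was unlike the other genes in that its level in Landrace boars was either at or below 0.330 CPM or at or above 6.64 CPM. In the low group of day 0 its counts were 419 (L1), 6 (L2), 10 (L3) and 1 (L4), or 7.55, 0.0744, 0.111 and 0.0166 CPM. In the high group its counts were 524 (L5), 467 (L6), 1009 (L7) and 949 (L8), or 9.0, 6.64, 11.2 and 11.9 CPM. All 4 high boars and 1 of the 4 low boars were above 1 CPM, and L1 lay inside the range of the high group. The log2 fold change was 2.29 ± 1.20 (SE, adjusted p = 0.161). Without L1, the 1 low boar above 1 CPM, it was 6.96 and passed (adjusted p = 0.000243). That fit compared the 4 high boars with 3 low boars of 1 to 10 reads. The gene met the filter through the high boars alone. Its pass therefore followed from leaving out the boar that went against the difference. In the 12 other alternatives with an adjusted p that value stayed above 0.05 and reached 0.316, and DESeq2 gave none for this gene. AQP9, the 1 excurrent duct marker tested, was also higher in the high group, and the part of duct tissue in the SLC26A3 difference was not tested.

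The same split ran through the other Landrace boars. In contrast (iii) the counts were 6 (L2), 2 (L9), 408 (L10) and 13 (L12) in the low change group. They were 1009 (L7), 742 (L13) and 19 (L15) in the high change group. Over all 13 Landrace boars, 6 were under 1 CPM (L2, L3, L4, L9, L12 and L15, with 1 to 19 reads and at most 0.330 CPM) and 7 were at 6.64 to 11.9 CPM. None of the 8 Duroc boars was under 1 CPM, and their counts ran from 77 (D7) to 1168 (D2), or 1.26 to 16.3 CPM. On the log2 scale the spread of SLC26A3 ranked 7th of 12839 genes among the Landrace boars and 62nd among the Duroc boars.

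The levels of the genes beside SLC26A3 on chromosome 9 did not show such a gap. These genes were chosen for their position after the values of SLC26A3 had been seen. CBLL1, 6014 bases away, ran from 68.3 to 113.8 CPM over the 21 boars. DLD ran from 40.9 to 132.7 CPM, LAMB1 from 158.4 to 384.8 CPM and BCAP29 from 824.2 to 1871 CPM. SLC26A4, a neighbouring gene of the same transporter family, was near 0 in every boar, at no more than 0.206 CPM. COG5, a Golgi tethering gene 206740 bases away, ran from 122.6 to 333.9 CPM. Its 5 lowest values were in L15 (122.6 CPM), L2 (124.0 CPM), L3 (125.8 CPM), L12 (134.3 CPM) and L4 (142.7 CPM), all of them under 1 CPM for SLC26A3, while L9 had 234.2 CPM.

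By Pearson's r over all 21 boars, the 3 genes most like SLC26A3 were EFNA5 on chromosome 2, NCOA2 on chromosome 4 and ZNF658 on chromosome 10. Since the boars fall into separate sets for SLC26A3, no pooled correlation is given. Within the 15 boars at 1 CPM or more, r was 0.21 (Spearman's rho 0.26) for EFNA5, 0.08 (rho 0.16) for NCOA2 and 0.39 (rho 0.48) for ZNF658. Within the 6 boars under 1 CPM, it was 0.09 (rho 0.14), -0.27 (rho -0.43) and -0.04 (rho 0.03). Of the neighbours, LAMB1 had the highest r in both sets, at 0.58 (rho 0.45) in the 15 and 0.92 (rho 1.0) in the 6 boars. COG5 had 0.30 (rho 0.57) in the 15 and -0.50 (rho -0.71) in the 6 boars. In these 6 boars SLC26A3 had 1 to 19 reads.

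**Figure D2:**
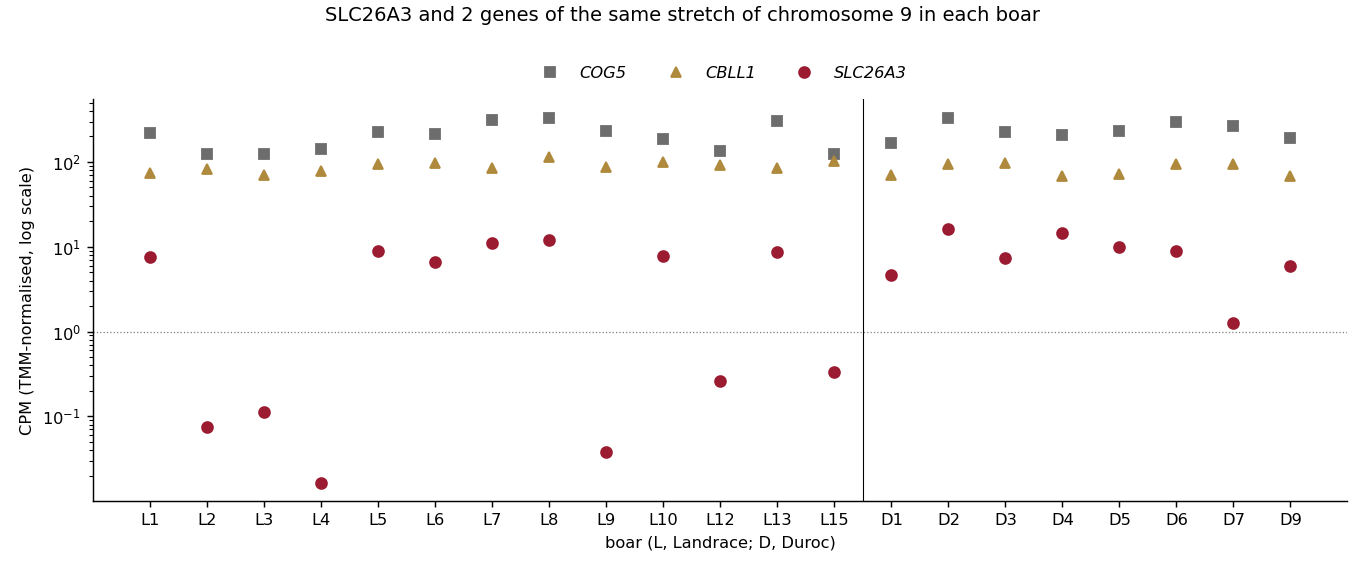
Levels of SLC26A3 and of 2 genes of the same region, COG5 and CBLL1, in CPM on a log axis, with 1 point per gene for each of the 21 boars, Landrace left and Duroc right of the vertical line. The dotted line marks 1 CPM. SLC26A3 lies under this line in L2, L3, L4, L9, L12 and L15, at 0.0166 to 0.330 CPM, whereas CBLL1 stays between 68.3 and 113.8 CPM in every boar.

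In contrast (iii), which asks about the change of hyperactivity over storage, none of the 7 genes tested passed, and neither did any of the 12824 genes (0%) by edgeR's quasi-likelihood test. At an unadjusted p under 0.05 there were 2540 genes, and by the likelihood ratio test and DESeq2 64 and 116 genes passed after adjustment, none of them among the 7. SLC26A6 had the lowest p of the 7. It was at 11.5, 11.3, 9.02 and 10.7 CPM in the low change boars L2, L9, L10 and L12, and at 8.92, 6.22 and 7.94 CPM in the high change boars L7, L13 and L15. L7 and L10 lay next to each other, 8.92 and 9.02 CPM, and the groups did not overlap, as was true of 16.4% of the 12824 genes. The log2 fold change was -0.48 ± 0.21 (SE, unadjusted p = 0.0413, adjusted p = 0.245), and without the shared boars L2 and L7 it was -0.56 (adjusted p = 0.344). Contrasts (i) and (iii) share L2 and L7, so they are not independent for this gene. The elongating spermatid markers had a negative fold change in 10 of 10, with a median of -0.59, while all tested Leydig (6, median 0.58), leukocyte (4, 0.63), endothelial (5, 0.26) and Sertoli markers (5, 0.32) had a positive one, and no marker passed. The high change boar L13 stood apart, with a summed Sertoli list of 480.6 CPM and a leukocyte list of 230.6 CPM, where the other 6 boars had at most 247.0 and 101.8 CPM. Without L13, SLC26A6 differed by -0.34 (adjusted p = 0.622, in a range of 0.148 to 0.622 over its 14 alternatives). The part of these markers in the SLC26A6 difference was not tested.

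In contrast (iii) HVCN1 differed by -0.30 ± 0.15 (adjusted p = 0.293). The other 5 genes tested had smaller differences. LRRC52 differed by 0.09 ± 0.18, ADCY10 by 0.02 ± 0.14, SLC26A8 by -0.07 ± 0.11, SLC9C1 by -0.07 ± 0.16 and KCNU1 by -0.07 ± 0.16. The signs for KCNU1, SLC9C1 and ADCY10 turned when single boars were left out. SLC26A3 and CFTR did not reach 1 CPM in 4 of the 7 boars and were not tested, and with no filter SLC26A3 differed by 1.77 ± 1.23 (adjusted p = 0.485).

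In Duroc, contrast (ii), no gene of 13043 passed (0%) by edgeR's quasi-likelihood test, the likelihood ratio test or DESeq2, and 158 had an unadjusted p under 0.05. SLC26A8 was 1 of these 158. It was at 415.8, 573.7, 487.8, 526.7 and 470.5 CPM in the labelled high boars D1 to D5 and at 753.6, 614.8 and 580.4 CPM in the labelled low boars D6, D7 and D9. The labelled high boars were all lower, a separation seen in 1.3% of the 13043 genes. The log2 fold change was -0.36 ± 0.15 (SE, unadjusted p = 0.0356, adjusted p = 1.0), and the exact permutation test gave p = 0.0357. HVCN1 was at 65.1, 70.6, 69.3, 91.8 and 76.3 CPM in D1 to D5 and at 93.1, 83.2 and 96.4 CPM in D6, D7 and D9, a log2 fold change of -0.26 ± 0.16 with D4 inside the labelled low range. SLC26A3, with the second lowest p of the 8 genes (unadjusted p = 0.0995), differed by 0.99 ± 0.55, and the other 5 genes by between -0.22 (ADCY10) and -0.02 (SLC9C1).

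The difference between the day 0 effects of the breeds was tested in 1 fit over 16 boars. SLC26A8 was higher in the high group of Landrace and lower in the labelled high group of Duroc. The difference was -0.67 ± 0.18 on the log2 scale (Duroc minus Landrace effect, unadjusted p = 0.0015, adjusted p = 0.329), the 20th lowest p of 12920 genes. ADCY10 differed by -0.63 ± 0.25 (unadjusted p = 0.0231, adjusted p = 0.329) and SLC26A6 by 0.75 ± 0.40 (adjusted p = 0.339). Cell type markers moved in this comparison too. All 5 peritubular markers tested had a positive difference (median 1.62) and all 8 spermatocyte markers a negative one (median -0.39). The part of these markers in the differences of the members was not tested. No gene of the 12920 passed (0%) by edgeR's quasi-likelihood test, although 1946 had an unadjusted p under 0.05, and the likelihood ratio test passed 3 and DESeq2 6, none of them among the 8. Without L1, SLC26A3 alone passed, with a difference of -5.94 (adjusted p = 0.0361), against -1.33 ± 1.48 (adjusted p = 0.604) with L1. L1 was the 1 low Landrace boar of day 0 above 1 CPM for this gene, so this pass too followed from leaving it out. Over the 21 alternatives for SLC26A3 the adjusted p ran from 0.0361 to 0.830.

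**Figure D3:**
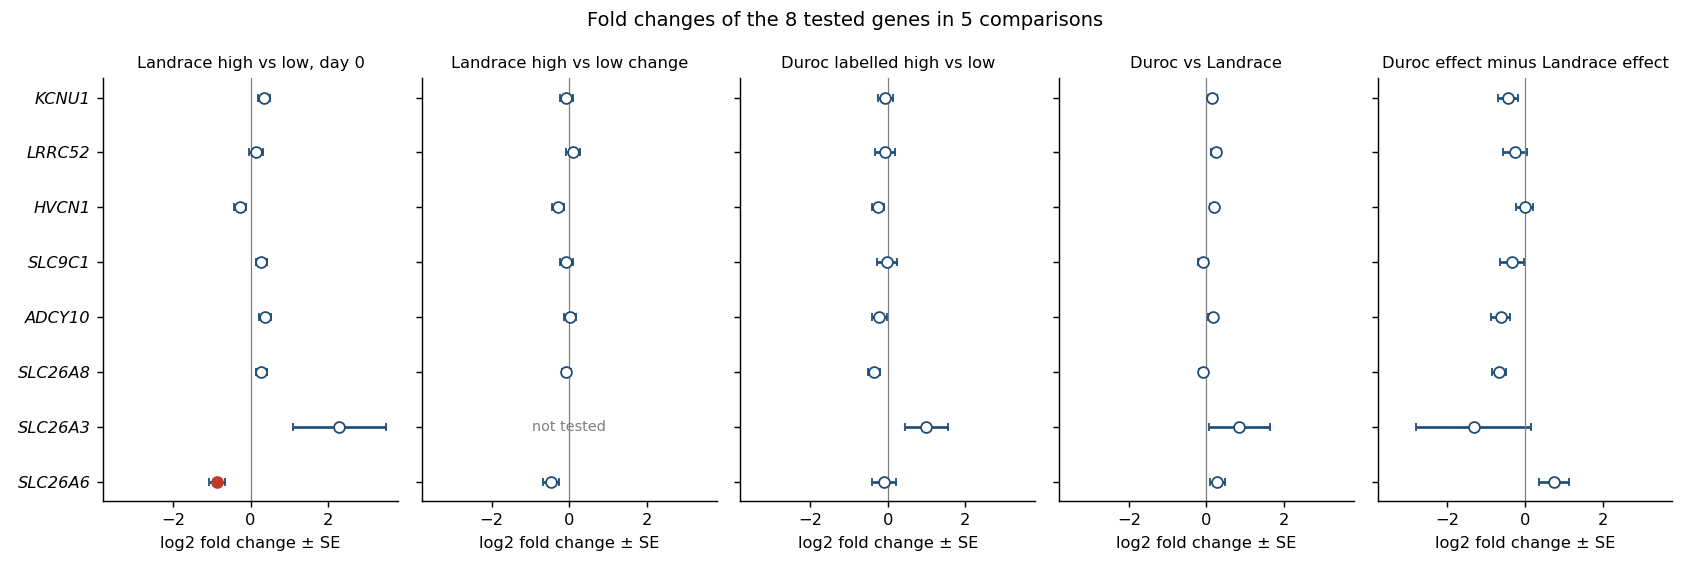
Log2 fold change ± SE (edgeR) of the 8 tested genes in 5 comparisons, with a filled red point for an adjusted p under 0.05 and open points for all others. SLC26A6 in the Landrace day 0 contrast, at -0.86 ± 0.20, carries the 1 filled point, and SLC26A3 has the widest error bars.

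Between the breeds none of the 8 genes tested passed, where 355 of 12835 genes did (2.77%), 165 higher and 190 lower in Duroc. LRRC52 came closest, with 32.2 ± 8.76 CPM in 8 Duroc and 27.2 ± 4.35 CPM in 13 Landrace boars (mean ± SD), a log2 fold change of 0.25 ± 0.13 (SE, adjusted p = 0.429). HVCN1 had 80.7 ± 12.1 CPM in Duroc and 71.6 ± 11 CPM in Landrace (0.19 ± 0.10, adjusted p = 0.533). KCNU1 differed by 0.15 ± 0.12, ADCY10 by 0.16 ± 0.12, SLC9C1 by -0.09 ± 0.13, SLC26A8 by -0.10 ± 0.09 and SLC26A6 by 0.28 ± 0.20. SLC26A3 differed by 0.85 ± 0.79 (adjusted p = 0.898). All 9 genes overlapped between the breeds.

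Ordered by group mean, the ends were held by the Landrace groups of day 0 and by the Duroc groups. The low group of day 0 was the lowest of the 6 groups for KCNU1 (76.3 ± 3.35 CPM), LRRC52 (24.8 ± 4.34 CPM), SLC9C1 (200.4 ± 40.5 CPM), ADCY10 (231.7 ± 19.3 CPM) and SLC26A3, and the highest for SLC26A6. The high group of day 0 was the highest of the 6 for KCNU1 (102.4 ± 26.5 CPM), SLC9C1 (255.6 ± 23.4 CPM) and SLC26A8 (670.7 ± 93.3 CPM), and the lowest for HVCN1 (65.9 ± 11.3 CPM) and SLC26A6. The labelled low Duroc group was the highest for LRRC52 (33.6 ± 10.3 CPM), HVCN1 (90.9 ± 6.85 CPM) and ADCY10 (339.9 ± 102.1 CPM), and the labelled high group was the lowest for SLC26A8 (494.9 ± 59.4 CPM) and the highest for SLC26A3. Neighbouring groups in these orders overlapped for every gene except SLC26A6, where the high change group lay wholly below the low change group. The 2 storage change groups share L2 and L7 with the day 0 groups, so these 6 means are not independent.

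The genes were not a single block across the boars. The correlations that follow are over the log2 levels of the 21 libraries, which share a normalization and 2 breeds, and are a description with no test. Over all boars ADCY10 and KCNU1 had the highest r of these pairs (r = 0.87, rho = 0.81), with similar values within the 13 Landrace (r = 0.85) and the 8 Duroc boars (r = 0.89) and without the 2 boars farthest from the median (r = 0.78). ADCY10 and SLC26A8 had r = 0.76 (rho = 0.68), with 0.89 within Landrace, 0.86 within Duroc and 0.57 without the 2 boars farthest from the median. The channel subunits KCNU1 and LRRC52 had r = 0.64 (rho = 0.48), but 0.31 within Landrace and 0.91 within Duroc. SLC26A6 ran the other way, with r = -0.69 (rho = -0.65) to SLC9C1 and -0.62 (rho = -0.70) to ADCY10, and with a positive r to HVCN1 alone among the 6 (r = 0.60, rho = 0.50). HVCN1 and ADCY10 had r = -0.64 within Landrace and 0.37 within Duroc.

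**Figure D4:**
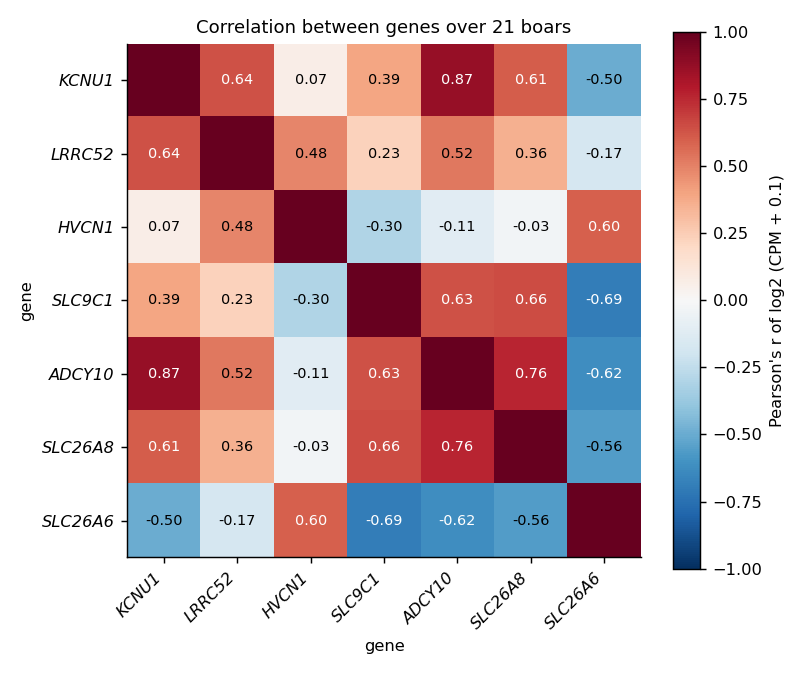
Pearson's r between the log2 levels of 7 of the genes over 21 boars, with red for positive and blue for negative values and each r written in its cell. KCNU1 and ADCY10 form the strongest pair (0.87), and the row of SLC26A6 is negative except for HVCN1 (0.60).

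Outside the set, the genes most like each member by Pearson's r over the 21 boars differed between members. For KCNU1 they were ZMYM2 (r = 0.94), DCAF1 (0.92) and PCF11 (0.91), and ZMYM2 also came first for ADCY10 (0.93), followed by USP34 (0.93) and ZNF667 (0.93). For SLC9C1 they were SGO2 (0.95), GOPC (0.95) and CDADC1 (0.95). For SLC26A8 they were PPP2R5C (0.93), TLK2 (0.92) and EYA3 (0.90). LRRC52 was most like DOP1B (0.85), SOX6 (0.83) and FNDC3B (0.81), and HVCN1 most like RETREG2 (0.81), PRDM2 (0.79) and HSF2BP (0.79). SLC26A6 was most like LMNA (0.93), BABAM1 (0.93) and TEX264 (0.93). Without the 2 boars farthest from the median of the member, r was between 0.70 and 0.94 over these 21 pairs.

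Set against spermatid markers, the members differed from each other in direction and in overlap in contrast (i). The level of each gene was divided by the geometric mean of the 8 round or the 10 elongating spermatid markers, and the log2 ratios were compared by two-sided exact permutation tests, with 9 genes tested and no p below 0.0286 possible. SLC26A6 was lower per round spermatid marker (-0.67, exact p = 0.0286) and per elongating spermatid marker (-0.50, exact p = 0.0286). ADCY10 was higher by 0.57 and 0.74 (exact p = 0.0286 for both), and SLC26A3 by 4.63 and 4.80 (exact p = 0.0286 for both). The size of the SLC26A3 values depends on the 0.1 CPM added, since 3 of the 4 low boars were at 0.0166 to 0.111 CPM. In level its groups overlapped through L1. SLC26A8, SLC9C1 and LRRC52 were higher by 0.66, 0.68 and 0.53 per elongating spermatid marker (exact p = 0.0286 for each), but overlapped per round spermatid marker, at 0.49, 0.51 and 0.36 (exact p = 0.0571 for each). Per elongating spermatid marker KCNU1 differed by 0.70 with overlapping groups (exact p = 0.0571). HVCN1 stayed near 0, at -0.07 and 0.10. The groups did not overlap for 3 of 9 genes per round and 6 of 9 per elongating spermatid marker, beside 26.4% and 35.4% of the 12979 genes. The mean log2 level of the round list itself differed by -0.14 and that of the elongating list by -0.31, and each enters its own ratios. The summed levels went the other way, with overlapping groups. Their means were 2413 CPM in the low and 2918 CPM in the high group for the round list. For the elongating list they were 13266 and 14267 CPM. The ratios therefore depend on the use of the geometric mean.

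In contrast (iii) the elongating list was lower still, by -0.73 on the log2 scale, with summed levels of 6955 to 13456 CPM in the high and 12390 to 16213 CPM in the low change boars. Per elongating spermatid marker LRRC52 (0.85), SLC9C1 (0.67) and SLC26A8 (0.68) had an exact permutation p of 0.0286, the smallest value possible, whereas SLC26A6 went from -0.47 in level to 0.26 in this ratio. These 3 of 9 genes stand beside 44.5% of the 12824 genes whose groups did not overlap in this ratio, and per round spermatid marker LRRC52 alone (0.41) did not overlap, beside 14.9%. In Duroc, HVCN1 per round spermatid marker was lower in the labelled high boars by -0.37 without overlap (exact p = 0.0179, the smallest value possible), and per elongating spermatid marker by -0.43 (exact p = 0.0357). It was the 1 gene of 9 whose groups did not overlap in these ratios, beside 1.86% and 2.1% of the 13043 genes.

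Related genes give the setting of the 9 members. In contrast (i) the 8 tested members had a median log2 fold change of 0.28 beside 0.03 over all 12979 genes. Of the other SLO channel genes, 0 of 2 tested passed. Of the other sodium-proton exchangers 1 of 8 was lower (SLC9A5, -1.50), and of the other SLC26 transporters 1 of 4 (SLC26A11, -0.80). Among the SLC4 bicarbonate transporters 2 of 8 were lower. SLC4A2, a chloride-bicarbonate exchanger, was at 2.5 to 4.07 CPM in the low and 0.363 to 1.24 CPM in the high boars, a log2 fold change of -1.83, and SLC4A11 differed by -1.15. Of the 4 genes tested from the carbonic anhydrase list, 1 was higher (CA8, 0.60).

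Of the genes of cyclic AMP synthesis, breakdown and protein kinase A, 2 of 23 were higher and 4 lower in contrast (i). These counts and those of the lists above stand beside 4.82% higher and 15.8% lower over all 12979 genes. The largest of the changes were in the membrane cyclases ADCY6 (-1.58) and ADCY3 (-0.89) and the phosphodiesterase PDE4A (-0.88), all lower. PRKACB (0.62), a catalytic subunit of protein kinase A that was named after its value was seen, was among the higher genes. Beside these, ADCY10, the soluble cyclase, had the positive difference given above. Of the CatSper subunits 2 of 9 were lower (CATSPER1, -1.04, and CATSPERG, -0.66). None of these related genes passed in contrast (iii) or in Duroc.

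**Figure D5:**
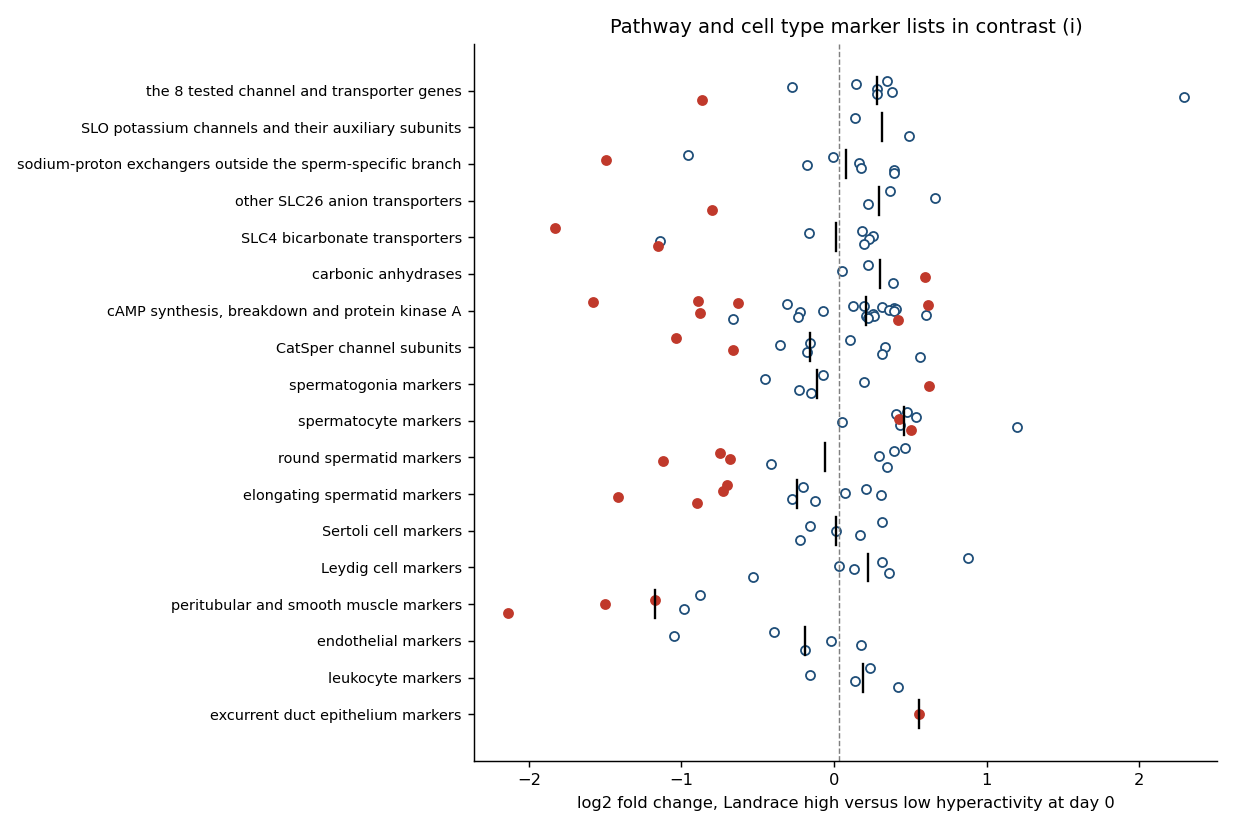
Log2 fold change of each tested gene (points) in Landrace boars with high against low hyperactivity at day 0, for the 8 tested members, the related gene lists and the cell type marker lists. Red points passed an adjusted p of 0.05, the black bars are list medians, and the dashed line is the median of all genes tested (0.03). The peritubular list has the lowest median (-1.17), and SLC26A6 is the red point of the top row.

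Among the genes of these lists that were tested, the largest breed difference was in SLC4A4, a sodium-bicarbonate cotransporter. It was at 15.2 to 36.9 CPM in the 8 Duroc boars, with a mean of 24.3 ± 6.96 CPM, and at 1.96 to 5.88 CPM in the 13 Landrace boars, with a mean of 2.70 ± 1.04 CPM. No Duroc boar fell within the Landrace range, and the log2 fold change was 3.19 ± 0.19 (SE, adjusted p = 1.99e-10). The other SLC4 genes tested did not pass between the breeds. PDE11A, a phosphodiesterase, was lower in Duroc by -0.46 (adjusted p = 0.0263), and CATSPER3 by -0.59 (adjusted p = 0.0113).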

How the data were processed

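Per the labels and methods, total testis RNA was made into stranded mRNA libraries and sequenced as single reads. The authors trimmed reads with Trimmomatic 0.36, used STAR for mapping to the Sscrofa11.1 genome and HTSeq for strand-aware counting per Ensembl gene, and the deposited values are raw counts. Reads without a gene (29.4 to 39.0% of a library's rows) were left out. Symbols came from a table of gene names, and coordinates from RefSeq (Sscrofa11.1).

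Genes with at least 1 CPM in enough libraries of a comparison (4 of 8, 4 of 7, 11 of 21 or 8 of 16) were normalized by TMM and tested with the quasi-likelihood test of edgeR 4.0.16 in R 4.3.3 with p-values adjusted by Benjamini-Hochberg (called under 0.05). SE are the fold change on the log2 scale divided by the square root of F. Levels were compared by two-sided exact permutation tests on log2 (CPM + 0.1), in Python 3.11.15 with scipy 1.17.1. The steps were tested on simulated data. Alternatives were the likelihood ratio test, DESeq2 1.42.0, other normalization, filters, pseudocount and spermatid list, a joint fit and leaving out each boar. Groups follow the labels. Each library is a different boar, so p-values measure the spread between boars. From related lists, at most 3 genes per comparison were named, by the largest change among those passing, with defining markers, and genes most like a member were the 3 with the highest Pearson's r. Members and lists were chosen with earlier results of these data known.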

Additional observations from a re-analysis of the deposited data

Results flagged for a closer look

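Of 45 groups of 4 to 10 boars examined for a boar far from the others, 3 held one, where chance alone gives about 1 in 20 groups, or 2.25. SLC26A8 in the Landrace high group of day 0 was at 809.8 CPM in boar L8 and between 609.8 and 635.2 CPM in the other boars of the group. SLC26A3 in the Landrace low group of day 0 was at 7.55 CPM in L1 and between 0.0166 and 0.111 CPM in the others. SLC26A3 in the Landrace low change group was at 7.70 CPM in L10 and between 0.0375 and 0.258 CPM in the others.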

How the results depend on the processing

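The count of genes passing in contrast (i) was 1 when all 21 boars were fitted together, with 0 members, and ran from 1 (without L3 or L6) to 3764 (without L5) when each boar was left out, with 0 to 3 members. It was 966 without L1, 1481 without L4 and 1228 without L8. SLC26A6 ran from -1.02 to -0.74 in these fits. In contrast (iii) the count was 64 by the likelihood ratio test, 116 by DESeq2, 1 with no filter, 1 with edgeR's own filter and 0 to 2 with a boar left out (2 without L2 or L10, 1 without L7 or L12). In Duroc it was 0 to 2 with a boar left out (2 without D9). Between breeds it was 537 by DESeq2, 554 with no filter and 230 in 16 boars with hyperactivity as a covariate. For the difference between breeds it was 3 by the likelihood ratio test, 6 by DESeq2 and 0 to 1, with 0 to 1 members, with a boar left out (1 without L1, L6, L7 or D9). The cause was not tested. Signs turned for LRRC52 in contrast (i) without TMM factors (-0.00703), and per elongating instead of round spermatid marker for HVCN1 in contrast (i) (0.10) and SLC26A6 in contrast (iii) (0.26). With a boar left out, signs turned in contrast (iii) for KCNU1 (-0.28 to 0.034), SLC9C1 (-0.17 to 0.0499) and ADCY10 (-0.0589 to 0.13), in Duroc for KCNU1 (-0.22 to 0.13), LRRC52 (-0.26 to 0.14), SLC9C1 (-0.22 to 0.10), ADCY10 (-0.32 to 0.0164) and SLC26A6 (-0.24 to 0.16), and for HVCN1 in the difference between breeds (-0.10 to 0.11). No paired analysis was possible because every library is a different boar and a boar's number recurs across breeds only as a name. Low counts limited SLC26A3 and CFTR.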
